A study of Homo sapiens with 8 samples.

Results

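MicroRNAs known for their enrichment in liver were examined in small RNA-seq libraries of 4 tumor-derived cell lines. The members were 5 mature miRNAs, namely hsa-miR-122-5p and hsa-miR-122-3p, hsa-miR-885-5p and hsa-miR-885-3p, and hsa-miR-1269a, out of 2588 mature miRNA names in the deposited table. They were chosen by their known liver or hepatoma association and by their reads in Huh-7 cells, so their higher levels in Huh-7 are given as a description without a test. Tests were restricted to the other 3 lines and to miRNAs outside this choice. ES-2 cells derive from ovarian cancer, MV-3 from melanoma, Huh-7 from hepatocellular carcinoma and A-549 from lung adenocarcinoma. All were untreated parental cells, kept in DMEM with 10% serum and harvested 48 h after seeding, and each line was represented by 2 biological replicates. Each line is a single established culture, so a difference between lines cannot be told apart from a difference between tumor types.

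A miRNA hairpin is cut by DROSHA and DICER into a duplex of a 5p and a 3p arm, of which usually one is loaded into an Argonaute protein and the other is lost. The loaded arm finds its target mRNAs mainly through the seed, bases 2 to 8 from its 5′ end. miR-122-5p is the dominant miRNA of hepatocytes, where it shapes lipid and cholesterol metabolism, and its loss is a mark of poorly differentiated liver tumors. miR-885-5p is another liver-enriched miRNA, best known as a serum marker of liver injury, and miR-1269a is a miRNA described as elevated in hepatocellular carcinoma.

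The mature sequences are shown because the arms of both hairpins, and a near copy of miR-1269a, are told apart by them below. They are from RefSeq (GRCh38.p14), are written 5′ to 3′ and have the seed in capitals. All 5 members were matched by name.

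hsa-miR-122-5p: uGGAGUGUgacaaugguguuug
hsa-miR-122-3p: aACGCCAUuaucacacuaaaua
hsa-miR-885-5p: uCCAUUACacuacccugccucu
hsa-miR-885-3p: aGGCAGCGggguguaguggaua
hsa-miR-1269a: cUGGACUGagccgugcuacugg

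The 5 members are each 22 bases long and have 5 different seeds. Among 2370 mature names of the RefSeq table, no other name had the seed of a miR-122 or miR-885 arm, whereas the seed of miR-1269a was shared with miR-1269b. The hairpin of miR-122 lies at chr18:58451074-58451158 on the plus strand, in an exon of the lncRNA gene MIR122HG. That of miR-885 lies at chr3:10394489-10394562 on the minus strand, in an intron of ATP2B2, which encodes a plasma membrane calcium pump and is transcribed in the same direction. The hairpin of miR-1269a lies at chr4:66276824-66276928 on the plus strand, in an intron of an lncRNA gene on the opposite strand, ENSG00000287383.

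Values are given as reads on the mature miRNA, as the percentage of all miRNA reads of a library, and as normalised CPM, which is reads per 1000000 of a library size that was scaled by the trimmed mean of M values (TMM) for differences in composition. Libraries held 1173902 to 2670030 miRNA reads, and 3 reads, taken as the detection floor, corresponded to 0.845 to 2.45 normalised CPM. Intervals and floors cover counting error only. The hepatocyte marker miR-122-5p was high in Huh-7, but it was itself among the chosen miRNAs. Of 5 miRNAs associated with melanocytes, MV-3 had reads on miR-204-5p only, with 2 reads in each library, and miR-211-5p was at 0. The list did not follow the line labels, since its summed reads were highest in Huh-7, at 157 and 100, mostly on miR-204-5p. The summed normalised CPM of 5 epithelial miRNAs of the miR-200 family was 2339 and 2273 in Huh-7, 1605 and 1726 in A-549, and 29.6 to 60.4 in the libraries of ES-2 and MV-3. Most of the sum in Huh-7 and A-549 was miR-200b-3p, with means of 1853 and 1354. Of the 5, miR-141-3p went the other way, with means of 5.25 in ES-2, 1.08 in Huh-7, 0.409 in A-549 and 0 in MV-3.

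The 5 members together took 14.2% and 15.6% of the miRNA reads of the Huh-7 replicates. In the other 6 libraries their share was between 0.000194% in A-549 replicate 2 and 0.0111% in MV-3 replicate 2. In Huh-7, most of these reads were of miR-122-5p, with 288469 and 252449 reads, the second most abundant miRNA of both libraries. Its share of reads was 14.0% ± 1.0 (SD, n = 2) and its level 83721 ± 3531 normalised CPM. miR-885-5p had 11365 and 9256 reads, 3181 ± 27.5 normalised CPM, and ranked 29 in both libraries. miR-1269a had 5747 and 4208 reads, 1528 ± 128 normalised CPM, and ranked 48 and 47. The levels of these 3 miRNAs thus lay in the order miR-122-5p, miR-885-5p and miR-1269a in each Huh-7 library, with no overlap between them.

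The 3p arms were far less abundant but not absent. On miR-122-3p, the Huh-7 replicates had 988 and 662 reads, or 252 ± 36.8 normalised CPM. miR-885-3p had 1050 and 841 reads, or 291 ± 5.96 normalised CPM. Although miR-122-5p exceeded miR-885-5p by more than an order of magnitude, the 3p arms of both hairpins lay side by side, and miR-885-3p was the higher of them in both libraries.

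**Figure D1:**
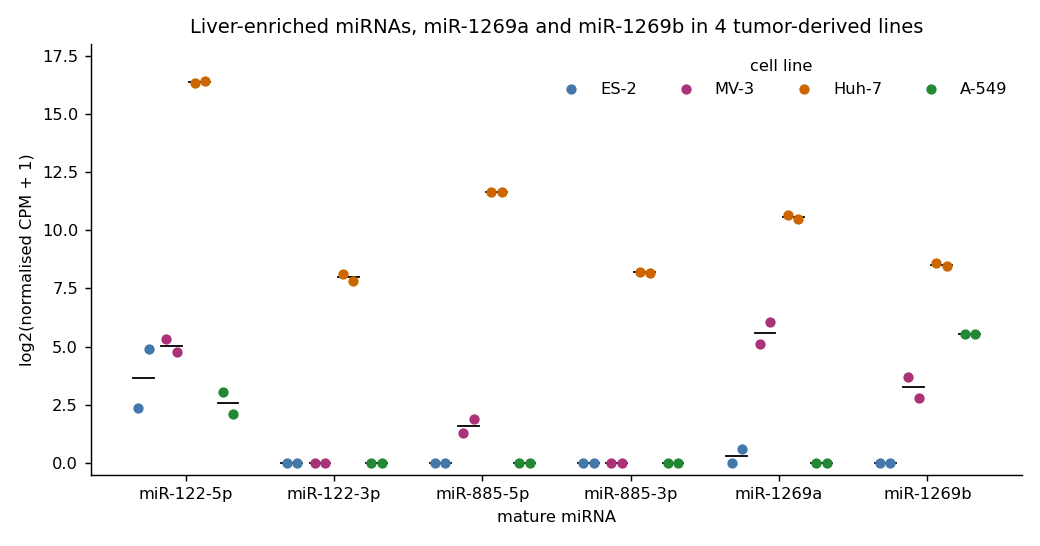
Levels of the 5 members and of miR-1269b, as log2(normalised CPM + 1), in the 2 libraries of each line (points, one per library) with the mean of the log values (bars). Huh-7 was the highest line for each of the 6 miRNAs, whereas the next line was MV-3 for miR-122-5p, miR-885-5p and miR-1269a and A-549 for miR-1269b.

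The hairpins differed in how one-sided their arm use was. Of the reads on miR-122 arms, the 3p arm took 0.341% in Huh-7 replicate 1 (95% Wilson interval 0.321 to 0.363%) and 0.262% in replicate 2 (0.242 to 0.282%). The 5p to 3p ratio was 292 and 381, so the replicates differed by more than their counting error. On miR-885 arms, the 3p arm took 8.46% (7.98 to 8.96%) and 8.33% (7.81 to 8.88%), with overlapping intervals and 5p to 3p ratios of 10.8 and 11.0. The intervals of the hairpins were far apart. For comparison, 135 hairpin names had both arms listed and at least 100 reads in each Huh-7 library. Their dominant arm held a median of 97.5% of the reads, and the 5p arm was the dominant one in 73. With 99.7% ± 0.0564 on 5p (SD, n = 2), miR-122 was on the one-sided part of this range, although 34 hairpins were still more one-sided. With 91.6% ± 0.0907, miR-885 was less one-sided than 98 of them. Arm shares do not depend on the scaling of the libraries.

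**Figure D2:**
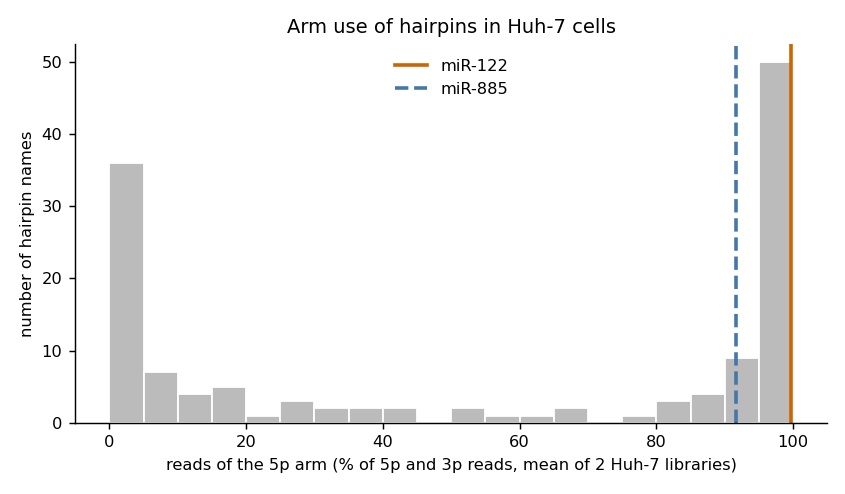
Histogram of the percentage of reads on the 5p arm (x axis, mean of 2 Huh-7 libraries) for 135 hairpin names, counted on the y axis in steps of 5 percentage points. Vertical lines mark miR-122 at 99.7% and miR-885 at 91.6%, on the side of the 5p-dominant hairpins.

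A further hairpin, miR-3591, is annotated on the opposite strand of miR-122, and its mature sequences, also from RefSeq, are the complements of the miR-122 arms over most of their length.

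hsa-miR-3591-3p: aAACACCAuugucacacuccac
hsa-miR-3591-5p: uUUAGUGUgauaauggcguuuga

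These sequences are given because reads counted without regard to strand could not be assigned to one of the hairpins. miR-3591-3p at chr18:58451087-58451108 is the reverse complement of miR-122-5p over 21 of its bases, and miR-3591-5p at chr18:58451121-58451143 that of miR-122-3p over 20. Read in the same sense, miR-3591-5p also matched miR-122-5p at 18 of 22 aligned bases. In the table, miR-3591-3p had 0 reads in all 8 libraries, including the Huh-7 libraries with 540918 reads on miR-122-5p. For miR-3591-5p, 14 and 11 reads were counted in Huh-7, 6 in A-549 replicate 2 and 0 in each of the other 5 libraries. Reads of this locus in Huh-7 were therefore listed almost entirely on the miR-122 strand, while in A-549 replicate 2 the 6 reads of miR-3591-5p stood beside 4 of miR-122-5p.

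To see which lines besides Huh-7 held reads, the 6 libraries of ES-2, MV-3 and A-549 were inspected one by one. Of 15 pairs of a member and a line, 4 had more than 3 reads in each library, namely miR-122-5p in all 3 lines and miR-1269a in MV-3. With at least 10 reads required in each library, 2 pairs were left, both in MV-3. Of all reads of the series, Huh-7 held 99.97% for miR-122-5p and for miR-885-5p, and 98.4% for miR-1269a.

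miR-122-5p had more than 3 reads in every library of each line, and the origin of the low reads outside Huh-7 was not tested. In ES-2, 6 reads were counted in replicate 1 and 57 in replicate 2, or 4.17 and 29.3 normalised CPM. MV-3 had 53 and 48 reads, or 39.2 and 26.3 normalised CPM. A-549 had 12 and 4 reads, or 7.39 and 3.27 normalised CPM. The ES-2 libraries overlapped with those of both other lines, while each MV-3 library was above each A-549 library. Mean levels followed the order Huh-7, MV-3 (32.8 ± 9.12), ES-2 (16.7 ± 17.8) and A-549 (5.33 ± 2.91). The Huh-7 mean was 2554 times that of MV-3, 5008 times that of ES-2 and 15711 times that of A-549. By limma on log2(normalised CPM + 1), with p-values adjusted over all 528 miRNAs tested and a call at an adjusted p below 0.01, none of the 3 pairs of these lines was called. The log2 fold change was 1.41 for MV-3 against ES-2 (SE 0.80, adjusted p = 0.244), -1.06 for A-549 against ES-2 (SE 0.80, adjusted p = 0.305) and -2.47 for A-549 against MV-3 (SE 0.80, adjusted p = 0.0406). The spread between the ES-2 libraries entered each of these SEs, since the fit estimates 1 variance per miRNA over the 8 libraries. Without ES-2 replicate 1 or without ES-2 replicate 2, the difference between A-549 and MV-3 was called, at limma's adjusted p = 0.0067 and 0.00515. MV-3 against ES-2 gave 0.13 without ES-2 replicate 1 and 2.68 without ES-2 replicate 2. A-549 against ES-2 gave -2.34 and 0.21, respectively, and so lost its direction.

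miR-122-3p and miR-885-3p had 0 reads in all 6 libraries. For miR-122-3p the Huh-7 mean was at least 121-fold higher than ES-2, taking 3 reads in a library as the limit. This zero carried little information, because the 180 reads of miR-122-5p outside Huh-7 would come with 0.549 reads of miR-122-3p at the arm ratio of Huh-7. miR-885-5p had 0 reads in ES-2 and A-549, where the Huh-7 mean was at least 1527-fold and 1296-fold higher. MV-3 was the only line besides Huh-7 with reads of miR-885-5p, 2 in replicate 1 and 5 in replicate 2, of which just the latter exceeded the floor. Huh-7 was 1506 times higher than MV-3, with a counting interval of 700 to 3589 on these 7 reads. No test is given for miR-885-5p among these lines, because it passed the filter on low reads through Huh-7 alone and a fold change from lines at 0 is set by the pseudocount.

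Levels of miR-1269a separated MV-3 from the lines without it. MV-3 had 46 and 119 reads, or 34.1 and 65.3 normalised CPM, whereas ES-2 had 0 and 1 reads and A-549 had 0 in both libraries. Neither MV-3 library overlapped with a library of ES-2 or A-549. miR-1269a was higher in MV-3 than in ES-2 by a log2 fold change of 5.29 (SE 0.43, limma's adjusted p = 0.000151) and lower in A-549 than in MV-3 by -5.59 (SE 0.43, adjusted p = 8.82e-05). Both calls held under every alternative setting tried for them. The size of these fold changes depends on the pseudocount, because ES-2 and A-549 were at or near 0 reads. By edgeR they were 7.15 and -9.65. Huh-7 exceeded MV-3 30.8-fold, a smaller ratio than for miR-122-5p or miR-885-5p. Against ES-2 the ratio was 5949 on a single ES-2 read, with a counting interval of 934 to 205600. In A-549, the Huh-7 mean was at least 623-fold higher.

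Calls among these 3 lines could be read for miR-122-5p and miR-1269a, while both 3p arms and miR-885-5p passed the filter through Huh-7 alone and had at most 5 reads in a library elsewhere. Between MV-3 and ES-2, miR-1269a was called and miR-122-5p was not, and 25.8% of the 528 miRNAs tested were called. Between A-549 and MV-3, again miR-1269a was called and miR-122-5p was not, beside 39.6% of all miRNAs, and DESeq2 called miR-122-5p as well. Between A-549 and ES-2, where 41.3% of all miRNAs were called, miR-122-5p was not called by limma, by edgeR or by DESeq2, and miR-1269a had 1 read in the libraries of both lines. With 2 libraries in each line, an exact permutation test of a single miRNA could not give a two-sided p below 0.333. All p-values here measure the spread between the libraries of a line.

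Ratios between the members were then set side by side. Per 1000 reads of miR-122-5p, Huh-7 had 19.9 and 16.7 reads of miR-1269a, while MV-3 had 868 and 2479. At the Huh-7 ratio, the miR-122-5p reads of MV-3 would come with 0.975 and 0.883 reads of miR-1269a, against 46 and 119 counted. For miR-885-5p, the same calculation gave 2.02 and 1.83 reads in MV-3, against 2 and 5 counted. In ES-2 replicate 2, it gave 2.17 reads of miR-885-5p and 1.05 of miR-1269a, against 0 and 1 counted. For miR-148a-3p, another miRNA abundant in Huh-7, it gave 11.6 reads in ES-2 replicate 2 and 10.7 and 9.73 in MV-3, against 34, 9 and 26 counted. In A-549, it gave 2.43 and 0.811 reads of miR-148a-3p, against 68 and 41 counted, and 0.91 and 0.303 of miR-483-3p, against 19 and 13 counted. For miR-483-3p, the same calculation gave 4.32 reads in ES-2 replicate 2 and 4.02 and 3.64 in MV-3, against 15, 6 and 12 counted. In ES-2 replicate 1 it gave 1.22 reads of miR-148a-3p and 0.455 of miR-483-3p, against 11 and 0 counted. On the counts alone, the miR-1269a reads of MV-3 and the miR-148a-3p and miR-483-3p reads of A-549 exceeded the ratios of Huh-7 in both libraries. The miR-148a-3p and miR-483-3p reads of ES-2 replicate 2 and MV-3 replicate 2 exceeded them too. So did miR-148a-3p of ES-2 replicate 1 and, by 6 against 4.02, miR-483-3p of MV-3 replicate 1. By contrast, miR-148a-3p of MV-3 replicate 1 and miR-483-3p of ES-2 replicate 1 did not. Whether these departures bear on the origin of the miR-122-5p reads was not tested. A departure of miR-885-5p from these ratios was not detectable at these counts in MV-3 and ES-2.

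Beside these low reads, 9 miRNAs typical of blood cells were counted, of which 2 to 6 had a read in a given library. Their summed level was 569 and 531 normalised CPM in ES-2, 135 and 151 in MV-3, 684 and 669 in A-549 and 1236 and 1239 in Huh-7. In ES-2 it came mostly from miR-142-3p, with 542 and 657 reads, which was at 0 in the other lines. The erythrocyte miRNA miR-451a had at most 2 reads in any of the 6 libraries and 0 and 4 in Huh-7, and both arms of miR-144, its cluster partner, were at 0 throughout. The summed level was thus lowest in MV-3, but single listed miRNAs were lowest in ES-2. miR-486-5p, an erythroid miRNA, had 9 and 31 reads in ES-2, 154 and 211 in MV-3, 581 and 383 in A-549 and 2766 and 2306 in Huh-7. miR-126-3p, an endothelial and platelet miRNA, had 11 and 23 reads in ES-2, 28 and 64 in MV-3, 531 and 431 in A-549 and 1619 and 1317 in Huh-7. By normalised CPM, both were lower in ES-2 replicate 1 than in replicate 2, as miR-122-5p was. The summed level of the list went the other way, as did miR-142-3p (376 and 337) and miR-142-5p (177 and 165). Reads of miR-451a and miR-150-5p in ES-2, at most 2, were also in replicate 1 only. A relation of the listed miRNAs to the miR-122-5p reads was not tested.

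miR-1269b shares the seed of miR-1269a. Its hairpin lies at chr17:12917268-12917342 on the minus strand, in an intron of ARHGAP44, which is transcribed from the other strand. The mature sequences are of equal length and are printed here with the base that differs in capitals.

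hsa-miR-1269a: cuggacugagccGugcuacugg
hsa-miR-1269b: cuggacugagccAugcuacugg

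They differ by the substitution G13A, counted from the 5′ end of miR-1269a and outside the shared seed. Reads that fit both may have been split by the alignment, so their values are uncertain as separate measurements. miR-1269b had 1364 and 1021 reads in Huh-7, 16 and 11 in MV-3, 74 and 56 in A-549 and 0 in both ES-2 libraries. A-549 thus had miR-1269b without a single read of miR-1269a, and MV-3 had more of miR-1269a in both libraries. Of the reads on both names, miR-1269a took 80.8% (95% Wilson interval 79.9 to 81.7%) and 80.5% (79.4 to 81.5%) in Huh-7. In MV-3 the share was 74.2% (62.1 to 83.4%) and 91.5% (85.5 to 95.2%), with intervals that did not overlap between the replicates. In A-549 it was 0%, with upper limits of 4.93% and 6.42%, which lie below every library of Huh-7 and MV-3.

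By normalised CPM, miR-1269b reached 366 ± 25.0 in Huh-7, 45.7 ± 0.175 in A-549 and 8.94 ± 4.11 in MV-3 (SD, n = 2). A-549 and MV-3 both exceeded ES-2, with log2 fold changes of 5.54 for A-549 (SE 0.37, limma's adjusted p = 3.58e-05) and 3.25 for MV-3 (SE 0.37, adjusted p = 0.000693). As ES-2 was at 0 reads, these sizes depend on the pseudocount, and edgeR gave 9.50 and 7.11. Compared with MV-3, A-549 was higher by 2.3 (SE 0.37, adjusted p = 0.00238). This last call was lost when libraries were scaled by size only, with a log2 fold change of 1.39 and limma's adjusted p = 0.016. The call was also lost without either A-549 library (adjusted p = 0.0163 and 0.0166) or without either Huh-7 library (0.0125 in both cases), although the fold change stayed between 2.29 and 2.3 in these 4 fits.

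**Figure D3:**
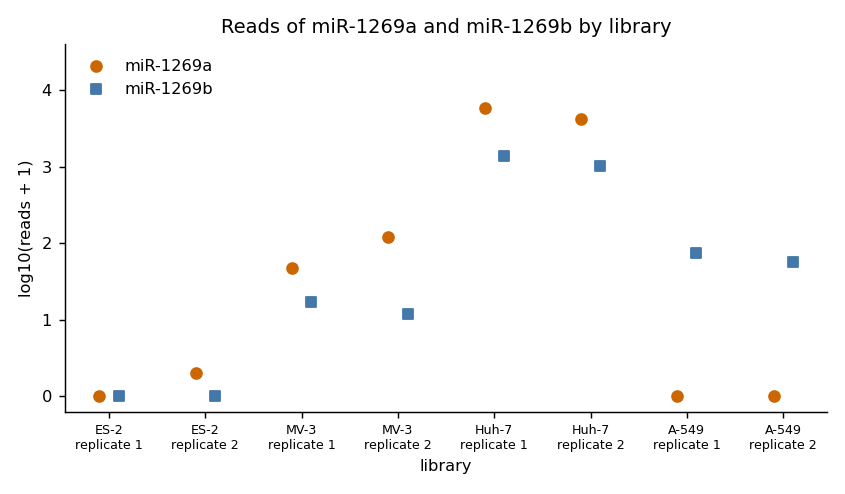
Reads of miR-1269a (circles) and miR-1269b (squares) in each of the 8 libraries (x axis), as log10(reads + 1) on the y axis. Huh-7 and MV-3 had more reads of miR-1269a than of miR-1269b, while A-549 had 74 and 56 reads of miR-1269b and 0 of miR-1269a.

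miRNAs with a pattern most like that of the members were ranked by Pearson's r of log2(normalised CPM + 1) over the 8 libraries, among 244 other miRNAs whose mean reached 100 normalised CPM in at least 1 line. For miR-122-5p the 5 highest were miR-548x-3p (r = 0.985), miR-148a-5p (0.982), miR-618 (0.979), miR-1306-5p (0.978) and miR-374b-5p (0.978). For miR-885-5p they were miR-148a-5p (0.995), miR-548x-3p (0.992), miR-618 (0.990), miR-1908-5p (0.986) and miR-1306-5p (0.981). The members miR-122-5p and miR-885-5p reached r = 0.989 with each other. These coefficients rest on 8 libraries of only 4 lines, in which Huh-7 was far from the others, and they describe a likeness of shape and not of size. In Huh-7, miR-548x-3p had 866 and 586 reads, miR-148a-5p 591 and 399, and miR-618 426 and 326. In the 6 other libraries miR-618 was at 0, and the other two had 1 read each, in MV-3. By contrast, miR-374b-5p was only 1.65- to 1.77-fold higher in Huh-7 than in the other lines.

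Other liver-enriched miRNAs, together with arms of the imprinted IGF2 and H19 loci that are active in fetal liver, were examined as a list of 20 names. The list was drawn up with earlier results of these data known, so its direction is not independent evidence. Of the 20, 15 passed the filter on low reads. Those that did not were miR-192-3p, miR-33b-5p and both arms of miR-675, the miRNA of H19, with few or no reads, and miR-802, with 0 reads in each library. In Huh-7 against ES-2, 10 of the 15 were called higher and 3 lower, beside 27.7% of all miRNAs called higher and 21.6% called lower. Against MV-3 the counts were also 10 and 3, beside 26.9% and 20.1%. Against A-549 they were 8 and 2, beside 23.7% and 28.6%. Among those called higher each time were miR-148a-5p, with at most 1 read in a library outside Huh-7, and miR-483-5p, with at most 13. Both passed the filter through Huh-7 alone, so their calls were fixed in advance. Every count of the list called higher given here includes both. The median log2 fold change of the 15 also includes both, and they lie above it in each comparison. It was 3.84, 4.25 and 1.10 in this order, and that of all 528 miRNAs 0.34, 0.19 and 0.09. The distance between these medians is therefore partly fixed in advance. These comparisons share the Huh-7 libraries. Without TMM factors, 13 of the list were called higher than in A-549, while the median of all miRNAs moved by 1.47. In that setting, 264 of all miRNAs tested were called higher than in A-549, against 125 with TMM factors.

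The miRNAs closest to the members in this list were the arms of miR-148a and miR-483. miR-148a-3p, abundant in hepatocytes, had 62362 and 47269 reads in Huh-7, 9 to 34 in the libraries of ES-2 and MV-3, and 68 and 41 in A-549. It was higher in Huh-7 by log2 fold changes of 10.38, 10.60 and 8.77 against ES-2, MV-3 and A-549. For miR-483-3p, from an intron of IGF2, Huh-7 had 22452 and 18585 reads, with at most 19 in any other library. miR-483-5p had 8291 and 7232 reads, and at most 13 elsewhere.

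The hepatic and intestinal miRNAs miR-192, miR-194 and miR-215 did not follow the members, because A-549 had them as well. Reads of miR-192-5p numbered 19125 and 13691 in Huh-7 and 7675 and 5327 in A-549, against 109 to 149 in the libraries of ES-2 and MV-3. Its level was 5030 ± 501 normalised CPM in Huh-7 and 4540 ± 260 in A-549, a difference that was not called (log2 fold change 0.15, SE 0.14, limma's adjusted p = 0.404). For miR-194-5p, 4828 ± 479 in Huh-7 compared with 3148 ± 75.4 in A-549, which was called (log2 fold change 0.61, SE 0.11, adjusted p = 0.0034). miR-215-5p was higher in Huh-7 than in A-549 by 2.93 (SE 0.67, adjusted p = 0.00835), with 62 and 60 reads in A-549. For miR-192-5p and miR-194-3p the order of Huh-7 and A-549 depended on the scaling, and for miR-194-5p and miR-215-5p the call did but not the order. With RLE size factors, none of miR-192-5p, miR-194-5p, miR-194-3p and miR-215-5p was called (log2 fold changes -0.08, 0.38, -0.14 and 2.71). By library size only, all were higher in Huh-7 (1.62, 2.09, 1.55 and 4.38 in this order), and only miR-194-3p was not called. For miR-122-5p, which had 12 and 4 reads in A-549, the ratio of Huh-7 to A-549 by normalised CPM was 15711, with a counting interval of 9148 to 25992. This ratio also depends on the scaling, since the means by library size only were 139819 CPM in Huh-7 and 3.22 in A-549.

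Some miRNAs abundant in liver were lower in Huh-7. Reads of miR-30a-5p numbered 1957 and 1445 in Huh-7 and 17282 to 108495 in the other libraries. It was lower by log2 fold changes of -6.75, -4.59 and -6.54 against ES-2, MV-3 and A-549, and this held under each scaling. miR-101-3p was lower against each line, by -1.18, -1.04 and -0.70. miR-378a-3p, encoded in an intron of PPARGC1B, was lower against ES-2 and MV-3, by -1.89 and -0.59, and was not called against A-549. For both, these differences depended on the scaling. By library size only, miR-101-3p was higher in Huh-7 than in A-549 (log2 fold change 0.77, limma's adjusted p = 0.00103) and was not called against ES-2. In the same setting, miR-378a-3p was higher than in A-549 (1.32, adjusted p = 4.46e-05) and was not called against MV-3, whereas with RLE size factors it was called lower than in A-549 (-0.37, adjusted p = 0.00955).

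Of the remaining listed miRNAs, miR-99a-5p was higher in Huh-7 by log2 fold changes of 1.15, 2.26 and 2.86 against ES-2, MV-3 and A-549, and miR-455-3p by 1.13, 2.01 and 1.10. Both were called higher under each scaling. miR-455-5p and miR-33a-5p, whose host gene SREBF2 encodes a regulator of cholesterol synthesis, were not called in any of these comparisons. By library size only, both were called higher than in A-549.

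**Figure D4:**
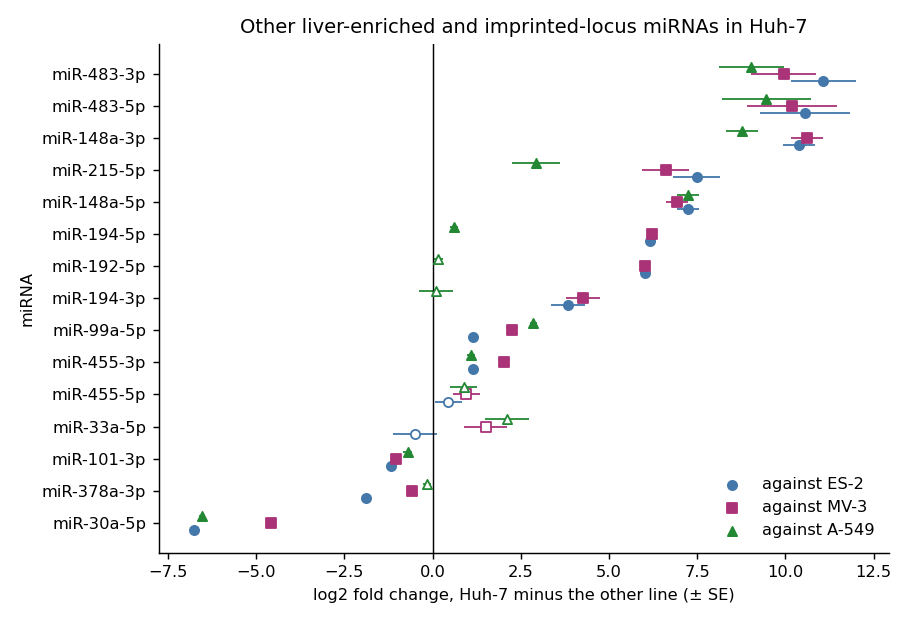
Log2 fold changes on the log2(normalised CPM + 1) scale (x axis, ± SE) of the 15 listed miRNAs that passed the filter (y axis), for Huh-7 against ES-2 (circles), MV-3 (squares) and A-549 (triangles). Filled symbols mark an adjusted p below 0.01 by limma and open symbols none. miR-148a and miR-483 arms were higher against all 3 lines, whereas miR-192-5p and miR-194-3p were higher against ES-2 and MV-3 and not called against A-549. miR-148a-5p and miR-483-5p passed the filter through Huh-7 alone, so their filled symbols were fixed in advance.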

How the data were processed

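Small RNA libraries were made by the authors from 50 ng of total RNA per sample with the NEXTflex Small RNA kit v3, 2 for each of 4 lines. Per the study's methods and the submitters' processing notes, reads were trimmed with cutadapt 1.14, aligned to GRCh38 with Bowtie2 2.3.2, and summarised on miRBase 21 mature miRNAs with featureCounts 1.5.3. Settings for strand and for reads with several alignments are not given in the sources used here. The authors deposited normalised signal values, scaled by TMM with edgeR 3.18.1. Each value was a whole multiple of its column's smallest value above 0 (100% of values within 0.001), and these multiples were taken as reads. Of 2813 table entries, those of the same name were summed to 2588 names.

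The main test was limma on log2(normalised CPM + 1), with 1 term per line over all 8 libraries, a mean-dependent prior and filterByExpr, which left 528 miRNAs. Fold changes on this scale understate those of miRNAs with few reads. P-values were adjusted by Benjamini-Hochberg, at a threshold of 0.01. edgeR's quasi-likelihood test and DESeq2 on the recovered reads were alternatives, besides other scalings, filters, a pseudocount of 0.1, a replicate block and leaving out single libraries. The fit was tested on simulated data. Named miRNAs were the members, their sequence relatives, lists of liver and blood miRNAs, markers of epithelial cells and melanocytes, and, for each of miR-122-5p and miR-885-5p, the 5 miRNAs with the highest Pearson's r among those of at least 100 normalised CPM in a line. The members and lists were chosen with earlier results of these data known. Hairpin and mature positions came from RefSeq, and overlapping genes from GENCODE 44. Software was R 4.3.3, limma 3.58.1, edgeR 4.0.16, DESeq2 1.42.0, Python 3.11.15 and SciPy 1.17.1.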

Additional observations from a re-analysis of the deposited data

How the results depend on the processing

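With 2 libraries per line, the levels outside Huh-7 rest on few reads, and for miR-122-5p in ES-2 on 1 library. Of the recomputed values, 394 kept their direction and side of the threshold or stayed within the limits set for values without a test, 5 lost a call, 11 gained one, 15 counts or levels moved beyond those limits, and 1 changed direction. The last was miR-122-5p in A-549 against ES-2, which was not called in either case and turned from -1.06 to 0.21 without ES-2 replicate 2 (-2.34 without ES-2 replicate 1). The difference of miR-122-5p between A-549 and MV-3, not called in the test reported, was called in 5 of 19 alternative settings. Among them were DESeq2 (log2 fold change -2.59), a threshold of 0.05 on the same fit (-2.47) and a fit of only these lines (-2.47). edgeR did not call it. Leaving out single libraries gave log2 fold changes of -2.96 to -1.98. Levels in Huh-7 moved with the scaling. With RLE size factors they were 77621 for miR-122-5p, 2943 for miR-885-5p and 269.5 for miR-885-3p, and by library size only 139819 for miR-122-5p, 420 for miR-122-3p, 5308 for miR-885-5p, 486 for miR-885-3p and 2547 for miR-1269a CPM. By library size only, 246 miRNAs were called higher in Huh-7 than in ES-2 and 264 than in A-549, as follows from the removed factors, and 13 of the liver-enriched list than in A-549. Called differences were then split into 82 higher and 56 lower in MV-3 against ES-2 (61 and 75 with TMM factors), 109 and 138 in A-549 against ES-2 (125 and 93), and 79 and 161 in A-549 against MV-3 (127 and 82). Leaving out single libraries gave 91 to 143 miRNAs higher than in ES-2, 88 to 144 than in MV-3 and 83 to 127 than in A-549, the lowest in each case without Huh-7 replicate 1. A floor of 10 reads left 2 pairs of a member and a line outside Huh-7. Replicate numbers were not used as pairs in the main test, and a shared effect of same-numbered libraries was not excluded. The correlation of same-numbered deviations ran from -0.05 to 0.232 over the 6 pairs of lines, and with a replicate block 129 miRNAs were called for MV-3 against ES-2, 207 for A-549 against ES-2 and 208 for A-549 against MV-3, with no change in the calls of miR-122-5p, whose adjusted p for A-549 against MV-3 became 0.054.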
